A study of Mus musculus with 18 samples.

Results

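Hydroxysteroid dehydrogenases interconvert the hydroxyl and keto forms of steroids, and 9 of their genes were measured in the livers of 18 male mice. The 9 genes are Hsd3b2, Hsd3b3, Hsd3b5, Hsd3b7, Hsd11b1, Hsd17b2, Hsd17b6, Hsd17b11 and Hsd17b13. They were chosen by gene symbol with their levels in the 4 groups of mice already known, so their group differences, and whether these pass the rule applied to all genes, are given as a description and not as a test of these genes. The tables listed 25266 genes, of which 11090 had a mean of at least 0.5 RPKM (reads per kilobase of gene length, scaled to the sequencing depth of each mouse) over the 18 mice and were tested, and all 9 hydroxysteroid dehydrogenases were among these.

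All mice carried floxed Ppp6r3 (ppp6r3 fl/fl), the gene of SAPS3, a regulatory subunit of protein phosphatase 6. FF mice had the floxed gene alone, and LKO mice had in addition an Alb-Cre transgene, in which the albumin promoter drives Cre recombinase in hepatocytes and leaves the other liver cells with the gene. From 8 weeks of age the mice were fed for 16 weeks a control diet (CD, 10 kcal% fat, D12450B) or a high-fat diet (HFD, 32.5 kcal% fat, D12266), giving 4 FF CD, 4 LKO CD, 5 FF HFD and 5 LKO HFD mice. The FF mice lacked the Cre transgene, so the transgene and the loss of SAPS3 cannot be told apart. The depth worked out from the lowest values was about 23400000 to 37000000 reads per mouse. As a check of the labels, Ppp6r3 was 8.38 to 11.0 RPKM in FF CD mice and 3.88 to 4.08 in LKO CD mice, and 7.55 to 8.82 in FF HFD mice and 4.22 to 4.87 in LKO HFD mice, with no overlap between genotypes.

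The enzymes fall into 4 roles. The 3-beta enzymes encoded by Hsd3b2 and Hsd3b3 oxidize the 3-beta-hydroxyl group of pregnenolone and related steroids, whereas mouse Hsd3b5 is known as a liver gene of adult males whose product works mainly as a 3-keto-steroid reductase. Hsd3b7 is a more distant relative that acts on sterols in the early steps of bile acid synthesis, and Hsd11b1 regenerates active corticosterone inside the cell from its inert keto form. Hsd17b2 oxidizes oestradiol and testosterone to weaker steroids, and Hsd17b6 oxidizes 3-alpha-hydroxysteroids such as androstanediols. Hsd17b11 and Hsd17b13 are close relatives whose products sit on lipid droplets, and Hsd17b13 is abundant in hepatocytes.

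Hsd3b5, Hsd3b2 and Hsd3b3 lie near one another on the minus strand of chromosome 3 within 144 kb (build GRCm38, the build also called mm10). Hsd3b5 (ENSMUSG00000038092.6) spans 98618634 to 98630252, Hsd3b2 (ENSMUSG00000063730.13) spans 98709255 to 98724543 and Hsd3b3 (ENSMUSG00000062410.14) spans 98741523 to 98763127 in the GENCODE annotation. Hsd17b13 and Hsd17b11 are also neighbours, at 103955440 to 103977410 and 103989762 to 104021919 on the minus strand of chromosome 5, within 66 kb. The others are single: Hsd11b1 on chromosome 1 (193221634 to 193264075), Hsd3b7 on chromosome 7 (127800604 to 127803802), Hsd17b2 on chromosome 8 (117701904 to 117759027) and Hsd17b6 on chromosome 10 (127990936 to 128007611). The coding sequences of Hsd3b2 and Hsd3b3 were 95.1% identical and each was 80.7% identical to that of Hsd3b5, whereas those of Hsd17b11 and Hsd17b13 were 65.0% identical. The closest relative of Hsd3b5 in sequence was Hsd3b4, at 95.2% identity.

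The 250 bases before the start sites of these 3 neighbours are shown because these genes lie together and Hsd3b5 moved far more than the others. They are RefSeq sequences of GRCm38.p6, read on the minus strand and ending just before the start site. The capitals mark stretches of at least 10 bases that are the same in the Hsd3b5 and Hsd3b3 windows. The start site that RefSeq gives for Hsd3b5 lies upstream of the start of the gene in the GENCODE annotation, which is at 98630252 on the minus strand. Which start site these livers use cannot be seen in RPKM values, so the Hsd3b5 window may not be the promoter in use. A second window listed for Hsd3b3, at 98762411 to 98762660, is not shown.
Hsd3b5, chr3:98645535-98645784, minus strand: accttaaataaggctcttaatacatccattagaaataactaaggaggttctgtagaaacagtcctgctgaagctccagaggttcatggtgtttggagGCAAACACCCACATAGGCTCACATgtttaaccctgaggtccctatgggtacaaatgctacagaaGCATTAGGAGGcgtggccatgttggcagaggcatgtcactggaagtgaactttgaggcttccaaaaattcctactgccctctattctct
Hsd3b3, chr3:98763129-98763378, minus strand: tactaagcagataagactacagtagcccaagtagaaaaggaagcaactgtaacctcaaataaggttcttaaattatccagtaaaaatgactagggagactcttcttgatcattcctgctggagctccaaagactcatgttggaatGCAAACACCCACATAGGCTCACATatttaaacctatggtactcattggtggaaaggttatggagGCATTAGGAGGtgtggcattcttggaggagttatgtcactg
Hsd3b2, chr3:98724544-98724793, minus strand: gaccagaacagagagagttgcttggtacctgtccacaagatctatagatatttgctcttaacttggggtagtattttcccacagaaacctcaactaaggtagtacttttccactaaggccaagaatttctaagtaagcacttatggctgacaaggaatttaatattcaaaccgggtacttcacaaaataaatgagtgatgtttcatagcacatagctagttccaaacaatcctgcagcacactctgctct
The Hsd3b5 and Hsd3b3 windows shared 2 such stretches of 35 bases in all, the longest of 24 bases, and were 60.4% identical. The Hsd3b2 window held neither stretch and was 50.4% identical to that of Hsd3b5 and 51.2% identical to that of Hsd3b3. These values lay within the 46.0% to 55.2% of 34 pairs of windows in which not both genes were of the Hsd3b family. The pair with the most similar windows was therefore not the pair with the most similar coding sequences.

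Windows were listed for 8 of the 9 genes and were searched on both strands for 6 short motifs that do not contain one another. Hsd3b3 and Hsd17b6 had 2 windows each, and a match in either counted for the gene, whereas the shares below are of single windows. The STAT5 motif TTCNNNGAA was found in the window of Hsd3b7 and is held by 7.0% of 32851 windows of all genes. The glucocorticoid receptor half-site AGAACA was found in that of Hsd3b2 (16.1% of all windows) and the nuclear receptor half-site AGGTCA in that of Hsd17b13 (14.0%). The CCAAT box CCAAT was found for Hsd3b3, Hsd11b1, Hsd17b6 and Hsd17b11 (33.8%) and the C/EBP motif TTGCNNAA for Hsd17b11 (9.6%). No window of the 8 genes held the TATA box TATAAA (12.4%). The Hsd3b5 window, which may not be the promoter in use, held none of the 6 motifs. A match is a run of letters and not a measured binding site.

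Hsd3b5 had by far the widest range of the 9 genes. In the FF CD mice its level was 154, 96.6, 151 and 129 RPKM, and in the LKO CD mice it was 95.4, 30.7, 74.3 and 52.0 RPKM. The 5 FF HFD mice had 3.94, 0.0478, 0.0711, 2.26 and 2.24 RPKM, and the 5 LKO HFD mice had 73.5, 44.3, 61.1, 64.0 and 51.0 RPKM. Every FF HFD mouse was below every other mouse, every FF CD mouse was above every mouse of the other groups, while the 2 diets overlapped in LKO mice.

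The group means of Hsd3b5 were 133 ± 26.7 (SD, n = 4) in FF CD, 63.1 ± 27.9 (SD, n = 4) in LKO CD, 1.71 ± 1.66 (SD, n = 5) in FF HFD and 58.8 ± 11.4 (SD, n = 5) in LKO HFD mice. A gene was called when its fold exceeded 1.5 and its adjusted p was under 0.05 (limma, Benjamini-Hochberg over the 11090 genes). HFD went with a 77.5-fold lower mean in FF mice, a difference of -5.87 ± 0.40 (SE) on the log2(RPKM + 1) scale, and with a 1.07-fold lower mean in LKO mice, -0.01 ± 0.40 (-0.31 to 0.23 when each mouse was left out in turn). Under HFD the mean was 34.3-fold higher in LKO than in FF mice, 4.71 ± 0.38 on the same scale. Under CD it was 2.1-fold lower in LKO mice, -1.15 ± 0.42, which was not called although the mice of the 2 genotypes did not overlap. In whole liver, fewer cells of a type and less RNA per cell cannot be told apart. In the text, ± is the SD over the 4 or 5 mice of a group for an RPKM value and the SE for a log2 difference.

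The lowest Hsd3b5 values rest on few reads. The depth-scaled difference between its 2 lowest mice, FF HFD mice 2 and 3, was assumed to be 1 read, which implies a length of 1607 bases. A read was then worth 0.0168 to 0.0266 RPKM for this gene. On that assumption the 5 FF HFD mice had about 234, 2, 3, 101 and 90.7 reads against 1391 to 7956 in the mice of the other groups. By this estimate FF HFD mice 2 and 3 were at or below the 3 reads taken as the lowest reliable count. The added 1 in log2(RPKM + 1) understates such a fall, and with 0.1 in its place the HFD difference in FF mice was -7.19 and the genotype difference under HFD was 6.02.

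**Figure D1:**
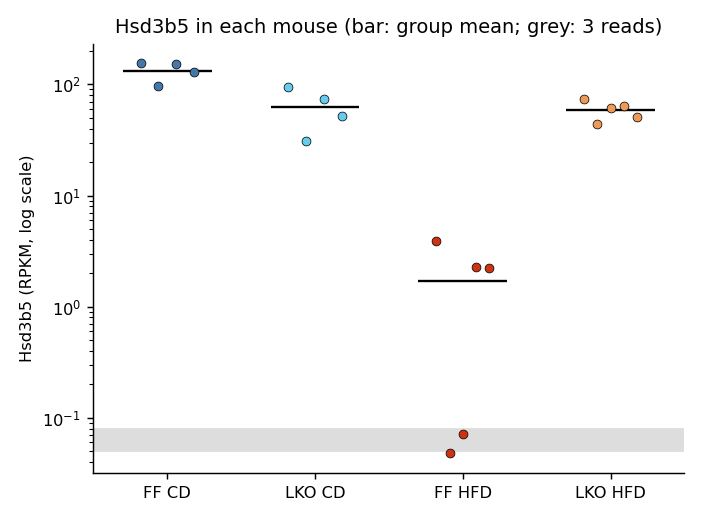
Hsd3b5 level in each of the 18 mice in RPKM on a log axis, by group, with a black bar at each group mean and a grey band at the level of 3 reads. The FF HFD mice sit between 0.0478 and 3.94 RPKM, and all other mice between 30.7 and 154 RPKM.

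The 2 neighbours of Hsd3b5 were also lower on HFD in FF mice, but by far less, and neither was called between genotypes. Hsd3b3 was 91.7, 76.8, 106 and 133 RPKM in FF CD mice and 76.6, 70.1, 65.2, 68.1 and 73.5 in FF HFD mice, a difference of -0.49 ± 0.17 that was not called although the mice did not overlap, and that was called without FF CD mouse 2 (-0.62). In LKO mice it was 95.2, 76.6, 102 and 98.1 RPKM on CD and 102, 101, 56.0, 72.3 and 65.3 on HFD, and those groups overlapped. Hsd3b2, the least abundant of the 9, was 18.6, 14.1, 20.1 and 18.4 RPKM in FF CD mice and 13.1, 12.2, 8.99, 11.7 and 8.70 in FF HFD mice. It fell by 0.66 ± 0.21 on the log2 scale, a 1.63-fold lower mean. That call was lost under 9 of 25 alternatives, which were the replicate block (-0.56), no filter, scaling to the same sum (-0.58) and leaving out FF CD mouse 1, 3 or 4 or FF HFD mouse 3, 4 or 5. The 25 include leaving out each LKO mouse, which cannot move a difference between FF groups. Over all mice left out the difference lay between -0.76 and -0.59. In LKO mice Hsd3b2 was 10.7 to 21.4 RPKM on CD and 7.77 to 16.6 on HFD, and neither genotype comparison of Hsd3b2 or Hsd3b3 exceeded 0.16 on the log2 scale in either direction.

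Together the 3 neighbours made up 252 ± 43.7 RPKM in FF CD, 172 ± 40.3 in LKO CD, 83.3 ± 6.92 in FF HFD and 150 ± 28.3 in LKO HFD mice (SD, n = 4, 4, 5 and 5). Hsd3b5 supplied 46.0% to 58.3% of this sum in FF CD mice, 26.0% to 46.0% in LKO CD mice, 0.058% to 4.21% in FF HFD mice and 27.4% to 48.7% in LKO HFD mice. The ratio of Hsd3b3 to Hsd3b2 moved little, from 5.72 ± 1.03 in FF CD to 6.73 ± 0.966 in LKO HFD mice, with overlapping ranges in all 4 groups. The composition of the summed transcripts therefore differed mainly through Hsd3b5.

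**Figure D2:**
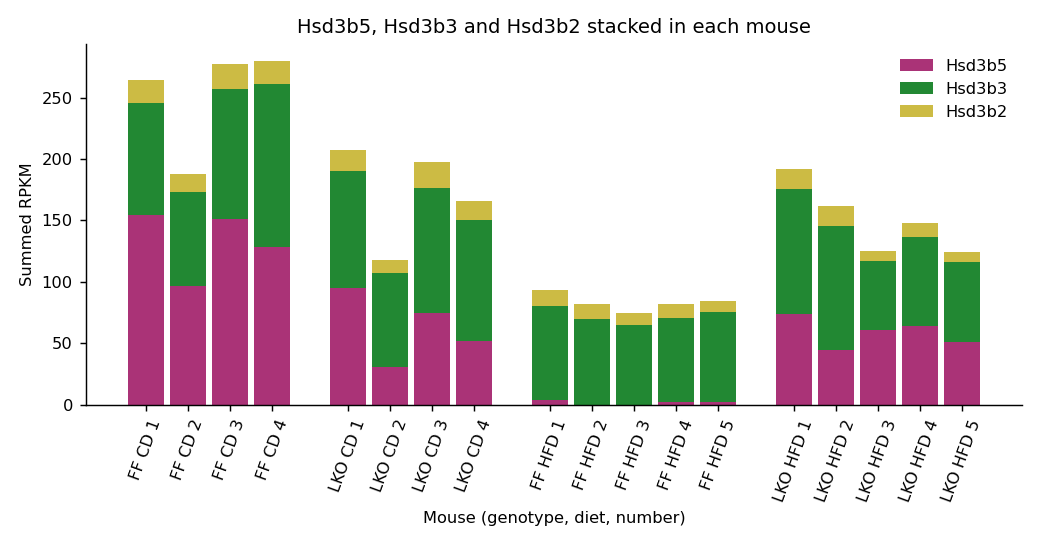
RPKM of Hsd3b5, Hsd3b3 and Hsd3b2 stacked for each mouse, with the mice grouped by genotype and diet. The sum is 74.3 to 93.6 RPKM in FF HFD mice, where the Hsd3b5 part nearly vanishes, and 118 to 280 RPKM in the other mice.

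Reads of these relatives could be exchanged only in part. Of the 50-base fragments of the Hsd3b5 transcript, 18.7% occurred in another gene of the family, nearly all of them (18.2%) in Hsd3b4. Hsd3b4 had at most 0.0225 RPKM in any mouse. For Hsd3b3 the share was 24.8% and for Hsd3b2 11.9%, mostly with each other and with Hsd3b6, which reached 2.53 RPKM at most. Some values of Hsd3b4 and Hsd3b6 lay far below the worth of 1 read, so reads shared by relatives had been divided among them in the deposited tables, and the split between Hsd3b2 and Hsd3b3 is uncertain to that extent. Among the 12 genes compared, the other 6 of the 9 shared no such fragment with any.

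Hsd17b2 was, as Hsd3b5, lower on HFD in FF mice and higher in LKO than in FF mice under HFD, on a much smaller scale. It was 55.3, 61.8, 51.0 and 72.0 RPKM in FF CD mice and 46.9, 31.8, 35.8, 35.9 and 43.1 in FF HFD mice, without overlap. In LKO mice it was 48.4, 48.0, 43.6 and 46.6 RPKM on CD and 54.0, 61.8, 65.7, 69.7 and 60.6 on HFD, again without overlap but in the opposite direction. In FF mice it fell by 0.62 ± 0.12 on HFD (1.55-fold), and under HFD it was 1.61-fold higher in LKO than in FF mice, 0.68 ± 0.11. The rise on HFD in LKO mice, 0.41 ± 0.12, and the lower level in LKO than FF mice under CD, -0.35 ± 0.12, were not called. The call in FF mice was lost when all mice were scaled to the same summed RPKM (-0.53) and without FF CD mouse 4 or FF HFD mouse 2 (-0.53 and -0.56).

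The spread of Hsd17b6 within groups was about as large as its largest difference between them. Its level was 34.3, 21.9, 73.9 and 34.7 RPKM in FF CD, 27.9, 24.5, 76.8 and 87.0 in LKO CD, 36.1, 105, 62.2, 52.3 and 38.9 in FF HFD, and 24.2, 31.9, 19.0, 108 and 9.85 in LKO HFD mice. All 4 groups overlapped, and the highest mouse had 10.9 times the level of the lowest. The SD within groups was 0.91 on the log2 scale against a median of 0.17 over 5332 genes with a mean of at least 5 RPKM, and 0.506% of those genes had a larger one. The largest of the 4 differences, -0.95 ± 0.51 for LKO against FF under HFD, was not called.

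Hsd17b13 was higher on HFD in FF mice, where Hsd3b5 was lower. It was 135, 142, 147 and 138 RPKM in FF CD mice, 174, 258, 193 and 218 in LKO CD, 239, 310, 310, 250 and 203 in FF HFD, and 211, 225, 232, 211 and 238 in LKO HFD mice. All mice of the other 3 groups were above all FF CD mice, while those 3 groups overlapped one another. In FF mice it rose by 0.88 ± 0.13 on HFD (1.87-fold), and in LKO mice the difference was 0.10 ± 0.13. Under CD the mean was 1.5-fold higher in LKO than in FF mice, 0.57 ± 0.13, which was not called. Its relative Hsd17b11 was 71.0 to 88.3 RPKM in FF CD, 94.0 to 112 in LKO CD, 101 to 123 in FF HFD and 70.6 to 98.5 in LKO HFD mice. It was thus above FF CD without overlap in both LKO CD and FF HFD mice, by 0.28 ± 0.11 and 0.42 ± 0.11, and below FF HFD without overlap in LKO HFD mice, by -0.32 ± 0.10. None of these differences reached 1.5-fold.

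Hsd11b1 was the most abundant of the 9 genes. It had 286, 264, 292 and 259 RPKM in FF CD, 330, 309, 359 and 379 in LKO CD, 344, 348, 234, 362 and 309 in FF HFD, and 267, 247, 276, 305 and 241 in LKO HFD mice. LKO CD mice were above both FF CD and LKO HFD mice without overlap, by 0.32 ± 0.13 and 0.36 ± 0.12 on the log2 scale, and no difference of this gene was called. Hsd3b7 was 80.9 to 124 RPKM in FF CD, 97.7 to 156 in LKO CD, 85.9 to 177 in FF HFD and 92.3 to 190 in LKO HFD mice. Its groups overlapped in all 4 comparisons, and its largest difference was 0.36 ± 0.22 for LKO against FF under CD.

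**Figure D3:**
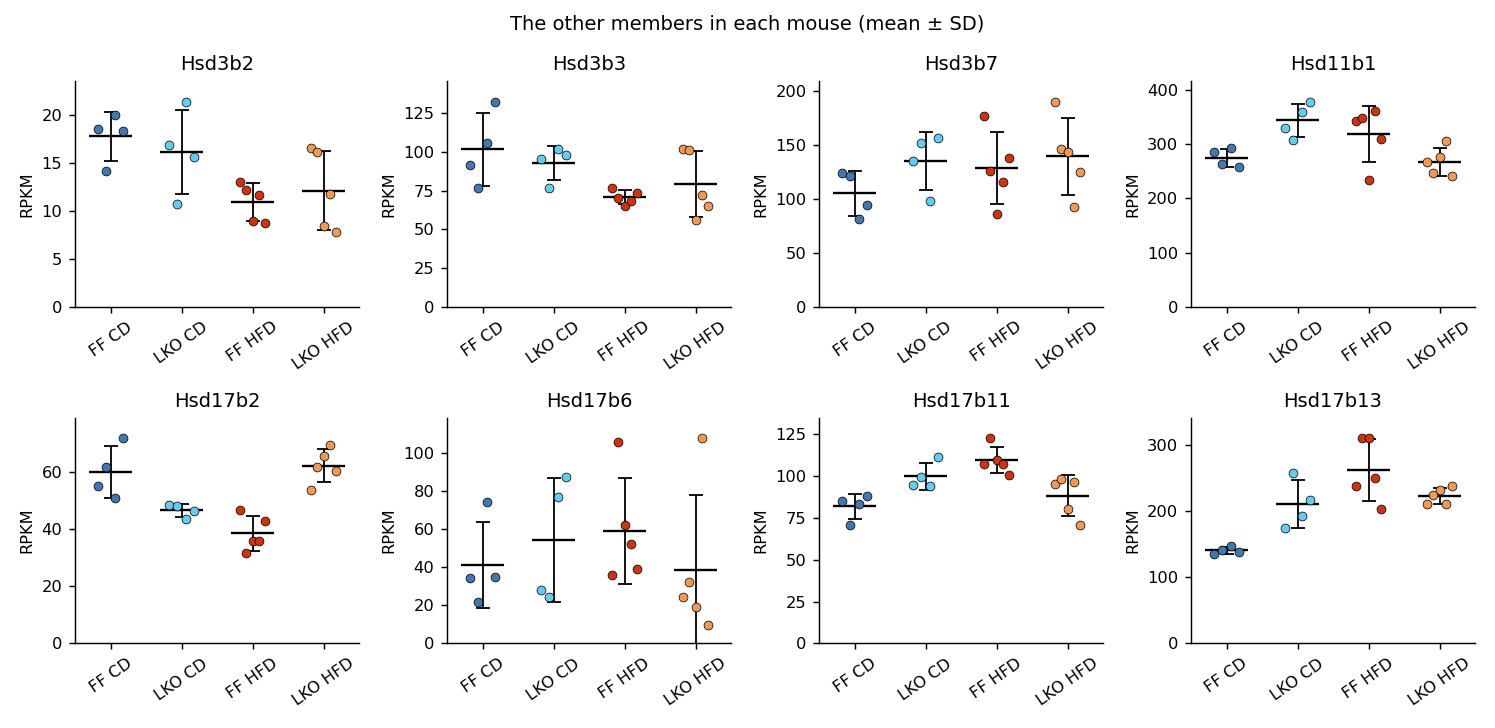
RPKM of the other 8 genes in each mouse by group, with the group mean and SD, the axes starting at 0 and the lower SD bar of Hsd17b6 in LKO HFD mice cut off there. Hsd17b2 is lowest in FF HFD mice (31.8 to 46.9 RPKM), Hsd17b13 is lowest in FF CD mice (135 to 147 RPKM), and Hsd17b6 overlaps in all groups.

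Per kilobase of transcript, the FF CD livers ranked the genes from Hsd11b1 (275 ± 16.5 RPKM, SD, n = 4) over Hsd17b13 (141 ± 5.32), Hsd3b5 (133 ± 26.7), Hsd3b7 (105 ± 20.9), Hsd3b3 (102 ± 23.8), Hsd17b11 (82.0 ± 7.62), Hsd17b2 (60.0 ± 9.13) and Hsd17b6 (41.2 ± 22.6) to Hsd3b2 (17.8 ± 2.56). Hsd11b1 and Hsd3b2 stood apart from their neighbours in this order in every mouse, and each of the other neighbouring pairs overlapped. In FF HFD livers Hsd3b5 was last instead of the third, with 1.71 RPKM against 10.9 ± 1.97 (SD, n = 5) for Hsd3b2, whereas in LKO HFD livers it had 58.8 ± 11.4, next to Hsd17b2 at 62.4 ± 5.87.

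Counted over the family, HFD changed 4 of the 9 genes in FF mice, Hsd17b13 upwards and Hsd3b5, Hsd17b2 and Hsd3b2 downwards, against 6.6% of all tested genes, and 6 of the 9 did not overlap between diets, against 18.3%. In LKO mice limma called none of the 9 against 1.27% of all genes, with 2 (Hsd11b1 and Hsd17b2) at an unadjusted p under 0.05, as were 22.3% of all genes, and 2 that did not overlap against 9.04%. Under CD none of the 9 was called between genotypes by limma, against 0.225% of all genes. There 5 of the 9, Hsd3b5, Hsd17b2, Hsd17b13, Hsd17b11 and Hsd11b1, were at an unadjusted p under 0.05 (7.67% of all genes), and 5 did not overlap (5.07%). Under HFD, Hsd3b5 and Hsd17b2 were called higher in LKO mice, 2 of 9 against 2.07%, and 3 did not overlap against 4.67%. The choice of the genes rested on the same values, so nothing is read from these counts about the family.

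The median log2 difference of the 9 genes was 0.20 for HFD in FF mice (0.07 over all tested genes), -0.19 for HFD in LKO mice (0.07), 0.28 for LKO against FF under CD (0.04) and 0.10 under HFD (0.03). The diet comparison in FF mice shares its FF CD mice with the genotype comparison under CD and its FF HFD mice with the genotype comparison under HFD, so their values are not independent of each other.

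**Figure D4:**
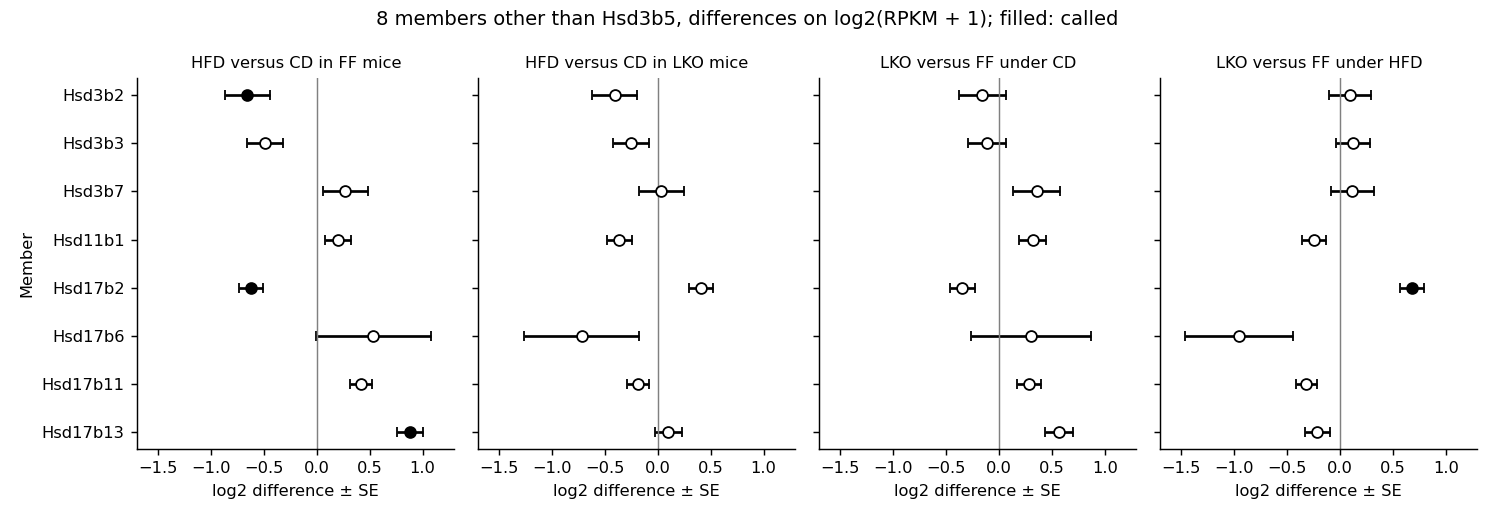
Difference of each gene other than Hsd3b5 on the log2(RPKM + 1) scale with its SE in the 4 comparisons, filled where called. Hsd3b2, Hsd17b2 and Hsd17b13 are called in FF mice (-0.66, -0.62 and 0.88) and Hsd17b2 is called between genotypes under HFD (0.68), while the wide bars belong to Hsd17b6.

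The difference between the diet responses of the 2 genotypes was called for 4 of the 9 genes, against 2.44% of all genes. The genes were chosen on the same values, so nothing is read from this count either. On the log2 scale the response of LKO mice minus that of FF mice was 5.86 ± 0.56 for Hsd3b5, 1.03 ± 0.16 for Hsd17b2, -0.78 ± 0.18 for Hsd17b13 and -0.60 ± 0.15 for Hsd17b11 (SE). The call of Hsd17b11 was lost under 10 alternatives, quantile normalization and the exclusion of FF CD mouse 1, 2 or 3, LKO CD mouse 2 or 4, FF HFD mouse 2 or 4, or LKO HFD mouse 3 or 5, and over all mice left out it lay between -0.65 and -0.53. That of Hsd17b13 was lost under quantile normalization and without LKO CD mouse 2 or 4, and over all mice left out it lay between -0.87 and -0.68. Hsd11b1, at -0.56 ± 0.17, was not called, but was under both other scalings and without FF HFD mouse 3 (-0.67). Hsd3b2, Hsd3b3 and Hsd3b7 lay between -0.24 and 0.25 with SEs of 0.24 to 0.30, and Hsd17b6 at -1.26 ± 0.77.

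Within the groups some of the genes varied together from mouse to mouse. After the group means of log2(RPKM + 1) were taken off, the 36 pairs of genes had a median Pearson's r of 0.084 over the 18 mice, and 22 pairs were above 0. The most negative pair was Hsd3b5 and Hsd17b13, with r of -0.847 and Spearman's rho of -0.858. It was -0.767 without FF HFD mice 2 and 3, the farthest from the median of Hsd3b5, and -0.863 over the 13 mice outside the FF HFD group. Where single mice were left out of an r, here and below, the deviations were still from group means that included those mice. An r within each single group was not computed. FF HFD mice 2 and 3, with the fewest Hsd3b5 reads, had the highest Hsd17b13 levels of all mice (both 310 RPKM), and among LKO CD mice number 2 had the lowest Hsd3b5 (30.7 RPKM) with the highest Hsd17b13 (258 RPKM) and number 1 the reverse (95.4 and 174 RPKM). Other mice departed from this order. FF HFD mouse 5 had the lowest Hsd17b13 of its group (203 RPKM) at 2.24 RPKM of Hsd3b5. FF HFD mouse 1, with the highest Hsd3b5 of that group (3.94 RPKM), had 239 RPKM of Hsd17b13. Among FF CD mice, number 3 had the highest Hsd17b13 (147 RPKM) with 151 RPKM of Hsd3b5.

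The neighbours Hsd3b2 and Hsd3b3 had the highest r within groups, 0.792 (rho 0.754), and 0.766 without LKO HFD mouse 5 and LKO CD mouse 2. These are the relatives whose reads could be exchanged, and the part of that in the correlation was not tested. Hsd17b6 and Hsd17b11 came next with an r of 0.687 (rho 0.695), which was 0.566 without LKO HFD mice 4 and 5. These 3 pairs were singled out from 36 after their values were seen, and both values of a mouse come from the same library and depth.

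**Figure D5:**
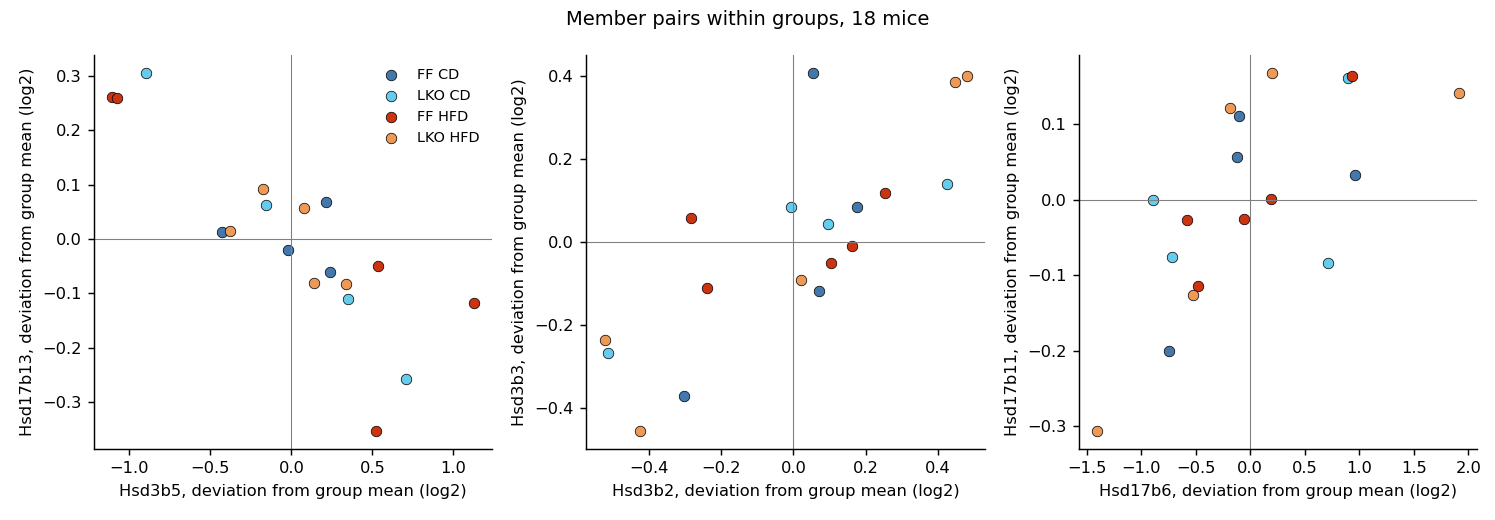
Deviation of each mouse from its group mean on the log2(RPKM + 1) scale for 3 pairs of genes, with mice coloured by group. The Hsd3b5 and Hsd17b13 points fall from upper left to lower right (r of -0.847), and the other pairs rise (0.792 and 0.687).

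Among 5323 other genes with a mean of at least 5 RPKM, those most like Hsd3b5 over the 18 mice were C8b, a complement component (Pearson's r of 0.979, and 0.789 within groups), Serpina1e (0.953, 0.71), the peroxisomal hydrolase gene Nudt7 (0.931, 0.719), Serpina1a (0.919, 0.648) and the growth factor receptor gene Egfr (0.916, 0.65). The Serpina1 genes are near-identical copies of a protease inhibitor gene, so their split is uncertain. C8b was 133 to 148 RPKM in FF CD, 78.2 to 104 in LKO CD, 17.0 to 39.6 in FF HFD and 89.4 to 118 in LKO HFD mice, a much narrower range than that of Hsd3b5. The genes most opposite were Cyp2a4 (-0.972, -0.782), Cyp2b9 (-0.968, -0.58) and Anxa2 (-0.923, -0.63). Cyp2a4, a testosterone hydroxylase gene, was 59.8 and 69.0 RPKM in FF HFD mice 2 and 3, 7.59 to 23.6 in the other FF HFD mice and at most 2.92 in every other mouse. The r over 18 mice is a description of likeness between these 4 groups and carries no p-value.

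The other genes had other nearest partners by the same measure. They were Serpina1e for Hsd17b2 (0.854, 0.442 within groups), Selenop for Hsd17b13 (0.926, 0.711), Cyp3a25 for Hsd17b11 (0.898, 0.786), Ttr for Hsd11b1 (0.801, 0.598) and Ddah1 for Hsd17b6 (0.792, 0.782). Hsd3b7 went with Acaa1a, a peroxisomal thiolase (0.938, 0.954), Hsd3b3 with Phyh, a peroxisomal hydroxylase (0.853, 0.832), and Hsd3b2 with Col27a1 (0.923, 0.863). For Hsd3b7, Hsd3b3 and Hsd17b6 the likeness within groups was thus about as strong as across them, and for Hsd3b2 it was slightly weaker within groups.

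Related genes were counted on lists drawn up with earlier results of these data known, so nothing is read from the counts of any list. Of all tested genes, 6.6% were called on HFD in FF mice and 1.27% on HFD in LKO mice. Between genotypes 0.225% were called under CD and 2.07% under HFD, and 2.44% in the difference of the diet responses. Of the other hydroxysteroid dehydrogenases, 6 of 13 in the tables were tested, and 3 rose on HFD in FF mice. They were Hsdl2 (1.03 ± 0.16 on the log2 scale, adjusted p = 0.0003305, limma), Hsd17b4, which acts in peroxisomal fatty acid oxidation (0.87 ± 0.12, adjusted p = 8.747e-05), and Hsd17b12, which acts in fatty acid elongation (0.60 ± 0.12, adjusted p = 0.002648). The response of Hsd17b4 also differed between genotypes (-0.70 ± 0.17, adjusted p = 0.02726). The median of the 6 on HFD in FF mice was 0.54, against 0.07 for all tested genes. Hsd17b4 was 92.8 to 127 RPKM in FF CD and 183 to 226 in FF HFD mice, without overlap. None of the 6 was called by limma in LKO mice or between genotypes on either diet, where 0, 2 (CD) and 4 (HFD) were at an unadjusted p under 0.05. The family members Hsd3b1, Hsd3b4 and Hsd3b6 did not reach the filter.

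Other genes of steroid metabolism were set against the 6.6% of all tested genes called on HFD in FF mice. Of 10 tested steroid reductases only Srd5a1, a steroid 5-alpha-reductase gene, was called, lower on HFD in FF mice (40.0 ± 6.52 to 22.5 ± 4.32 RPKM, adjusted p = 0.00232). Of 6 tested steroidogenic enzymes only Cyp17a1 was called, higher on HFD in FF mice (14.9 ± 9.31 to 45.0 ± 13.1 RPKM, adjusted p = 0.01201). On the list of steroid receptors and inactivating enzymes, 4 of 11 tested genes fell on HFD in FF mice, namely Ugt2b38, Cyp7b1, Sult2a8 and Ugt2b1, and 2 of these were higher in LKO than in FF mice under HFD. They were Cyp7b1, an oxysterol and androgen hydroxylase gene (32.1 ± 12.5 to 87.5 ± 21.6 RPKM, adjusted p = 0.0008434), and Ugt2b38 (0.698 ± 0.336 to 4.43 ± 3.32 RPKM, adjusted p = 0.0181). Both were also lower in LKO than in FF mice under CD (adjusted p = 0.03598 and 0.01406).

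Hsd11b1 and Hsd3b7 were set beside the genes of their pathways. Of 9 genes of glucocorticoid handling and response, Cyp3a11 rose on HFD in FF mice (296 ± 56.6 to 884 ± 209 RPKM, adjusted p = 0.0007471), and H6pd, which supplies the cofactor of Hsd11b1, and Fkbp5 rose on HFD in LKO mice (adjusted p = 0.01897 and 0.04779). Of 17 glucocorticoid receptor target genes, 4 were lower in LKO than in FF mice under HFD, namely G6pc (166 ± 35.02 to 48.8 ± 9.39 RPKM, adjusted p = 3.064e-06), Dusp1 (17.6 ± 2.05 to 5.71 ± 1.41 RPKM, adjusted p = 9.951e-05), Igfbp1 (adjusted p = 0.04604) and Errfi1 (adjusted p = 0.04561). The median of the 17 there was -0.54, against 0.03 for all genes. On HFD, 3 of the 17 rose in FF mice (Mt1, Mt2 and Igfbp1), and in LKO mice Mt1 and Mt2 rose while G6pc, Sds and Errfi1 fell. Of 14 bile acid genes, Cyp46a1, Cyp8b1 and Hsd17b4 rose and Cyp7b1 fell on HFD in FF mice, and Cyp7b1 alone was called between genotypes under either diet. Hsd17b4 and Cyp7b1 each stand on more than 1 list.

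The lipid droplet list, which holds neither Hsd17b11 nor Hsd17b13, had 10 of 17 tested genes higher and 1 lower (Pnpla3) on HFD in FF mice, with a median of 0.71 against 0.07. In LKO mice 3 were higher (G0s2, Fitm2 and Lipe) and Pnpla3 was lower. Cidec and Plin4 were lower in LKO than in FF mice under HFD (28.1 ± 14.2 to 5.44 ± 3.45 RPKM, adjusted p = 0.005031, and 8.37 ± 3.91 to 2.55 ± 1.69 RPKM, adjusted p = 0.02345). Hsd17b13, at 263 ± 47.1 and 223 ± 12.3 RPKM in those groups, was not called there.

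Genes known to be higher in male than in female liver were counted because Hsd3b5 is one of them. Of 18 tested, 3 (Cyp7b1, Ugt2b38 and Ugt2b1) also stand on the list above. On HFD in FF mice 15 of the 18 fell, against 6.6% of all tested genes called, with a median of -1.50 (0.07 over all genes). Under HFD 9 were higher in LKO than in FF mice, against 2.07% of all genes called, with a median of 0.83 (0.03). Under CD the genotypes differed the other way. There 4 of the 18 (Selenbp2, Serpina1e, Ugt2b38 and Cyp7b1) were lower in LKO than in FF mice, against 0.225% of all genes called. The median was -0.85 (0.035 over all genes). In LKO mice Selenbp2 and Scara5 rose on HFD. Serpina1e went from 3777 ± 1055 RPKM in FF CD to 79.0 ± 65.9 in FF HFD mice and was 746 ± 359.9 in LKO CD and 1637 ± 219.9 in LKO HFD mice (adjusted p = 4.06e-07 for diet in FF mice and 5.57e-06 for genotype). Selenbp2 and Cyp4a12b were the next largest between genotypes under HFD (3.48 ± 0.38 and 1.87 ± 0.48, adjusted p = 4.03e-05 and 0.03492). The list of genes known to be higher in female liver held 25 genes. Of these, 13 reached the filter of a mean of 0.5 RPKM over the 18 mice and were tested. This filter can keep a gene that is high in a single group. Hao2 had means of 0.03439 RPKM in FF CD, 0.1634 in LKO CD, 2.006 in FF HFD and 0.1803 in LKO HFD mice. The share of the 13 called can thus be partly set by the filter. Of the 13, 9 rose on HFD in FF mice (6.6% of all genes called). Under HFD 5 were lower in LKO than in FF mice (2.07% of all genes called), with the largest differences in Cyp2b9 (69.3 ± 40.8 to 0.497 ± 0.564 RPKM, adjusted p = 6.962e-07), Cyp2a4 and Cyp2a5. Under CD 3 of the 13 (Cyp4a14, Cyp4a10 and Acot3) were higher in LKO than in FF mice (0.225% of all genes called). Cyp2b9, Cyp2a4 and Cyp2a5 were not called there (0.58 ± 0.45, 0.54 ± 0.49 and 0.09 ± 0.33). On HFD in LKO mice limma called none (1.27% of all genes), with 2 at an unadjusted p under 0.05. Both lists were drawn up with earlier results known, so nothing is read from their counts. Of 11 growth hormone and STAT5 genes, Stat5a rose on HFD in both FF and LKO mice (0.68 ± 0.10 and 0.62 ± 0.10), Bcl6 fell on HFD in FF mice, and Socs2 was higher in LKO than in FF mice under HFD (2.57 ± 0.799 to 8.20 ± 3.29 RPKM, adjusted p = 0.0314).

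Markers of liver cell types were summed for each mouse. The 6 hepatocyte markers summed to 33530 to 41830 RPKM in FF CD, 40880 to 50800 in LKO CD, 35450 to 45270 in FF HFD and 38690 to 46130 in LKO HFD mice, although 3 of them (Cps1, Serpina1c and Apoa1) fell on HFD in FF mice. The 6 sinusoidal endothelial markers summed to 13.6 to 29.6 RPKM in FF CD and 37.0 to 60.2 in FF HFD mice, without overlap, and 4 rose. The 8 Kupffer cell markers summed to 46.9 to 66.8 and 56.7 to 115 RPKM in these groups, with 3 higher, and the 7 stellate cell markers to 59.7 to 86.2 and 75.1 to 117 RPKM, with Col1a1 and Col3a1 higher. Between genotypes under HFD, Col1a1 and Col3a1 were lower (-1.15 ± 0.25 and -1.24 ± 0.26) and Apoa1 was higher (0.64 ± 0.14) in LKO mice, where the stellate sum was 52.8 to 104 RPKM. In LKO mice the Kupffer cell marker Clec4f rose on HFD. The part of these markers in the differences of the hydroxysteroid dehydrogenases was not tested. In LKO mice the endothelial sum was 10.9 to 31.7 RPKM on CD and 28.3 to 39.5 on HFD. Cholangiocyte markers summed to 15.3 to 65.9 and lymphocyte markers to 1.87 to 4.32 RPKM over all mice. Of 6 adrenal and gonadal markers, Cyp11b1, Cyp11b2, Cyp11a1 and Nr5a1 stayed under 0.1 RPKM in every mouse, whereas Star and Insl3 did not. The 6 summed to 0.313 to 1.38 RPKM over all mice, and 1 of them passed the filter.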

How the data were processed

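Per the labels, total liver RNA was extracted with Trizol, reads were aligned to mm10 with HISAT2 2.0.4, and genes were quantified in Partek. The authors deposited 1 table of RPKM values per mouse. The annotation, strandedness and handling of shared reads are not given in the sources used here, and the labels name both a small RNA library protocol and standard RNA-seq. The 9 genes and all gene lists were chosen with earlier results of these data known.

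The tables were joined by symbol. Genes with a mean of at least 0.5 RPKM were fitted with limma 3.58.1 in R 4.3.3 (lmFit and eBayes with a trend) on log2(RPKM + 1) with 1 coefficient per group over all 18 mice, and p-values were adjusted by the Benjamini-Hochberg method over 11090 genes. A call needed a fold above 1.5 and an adjusted p under 0.05. The script was tested on simulated data. Depth was estimated from the steps between low values. RPKM holds no counts, so no count model was used and the intervals cover the spread between mice.

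The labels number the samples within each group, and the study describes them as mice, so p-values measure the spread between these samples. Named genes were the 9 hydroxysteroid dehydrogenases and, per list, up to 3 called between genotypes under HFD with the largest difference, or else called for diet in FF mice. Genes of counts up to 5 outside this rule were named after their values were seen. Likeness was Pearson's r over genes with a mean of at least 5 RPKM. Promoter windows were matched to RefSeq by symbol for 8 of 9 genes. Hsd3b8, Hsd3b9, Hsd17b8, Sts and Tf were not analysed here. The fits were repeated without the filter or with one at 1 RPKM, with 0.1 as the added value, with all mice scaled to the same sum, and with quantile normalization, only the groups compared, a replicate block, the adjusted p alone, and each mouse left out in turn.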

Additional observations from a re-analysis of the deposited data

Results flagged for a closer look

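Each value here belongs to a gene that was chosen with these data known. Hsd17b6 in LKO HFD mouse 4 was 107.5 RPKM, far from the other 4 LKO HFD mice at 9.85 to 31.9 RPKM, and its gap to the nearest of them was 0.774 of the range of the group. It was the only such value among 36 groups of 4 or 5 mice, 9 genes in 4 groups, and chance marks about 1 in 20 groups. The difference between genotypes under HFD was -0.95 with this mouse and -1.43 without it, and it was called in neither case.

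The difference between the HFD responses of LKO and FF mice was called for Hsd3b5 (5.859 on the log2 scale), Hsd17b2 (1.028), Hsd17b13 (-0.782) and Hsd17b11 (-0.603), each as the response of LKO mice minus that of FF mice. Of all tested genes 2.44% were called there. The call of Hsd17b11 was lost under 10 alternatives and that of Hsd17b13 under 3.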

How the results depend on the processing

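The count of the 9 genes called was recomputed under each alternative. For HFD in FF mice it was 4, and 2 (Hsd3b5 and Hsd17b13) after scaling to the same sum. Over the mice left out in turn it was 2 to 5 for HFD in FF mice and for the difference of the diet responses (main count 4), the lowest without FF CD mouse 4 in the first and without LKO CD mouse 2 or 4 in the second. The 0 of HFD in LKO mice, the 0 of genotype under CD and the 2 of genotype under HFD (Hsd3b5 and Hsd17b2) stayed at 0, 0 and 2 under every alternative run, each mouse left out included. The cause of these moves was not tested.

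Replicate numbers recur in all groups. Same-numbered mice correlated in their deviations at -0.173 to 0.332 over 24 pairs, 9 of them over 0.1. Differently numbered mice were not correlated for reference, so these values cannot show whether the numbers pair the mice. The main fit did not treat the mice as paired. With the replicate block the counts were 3 for HFD in FF mice, where Hsd3b2 was not called, 0 for HFD in LKO mice, 0 and 2 for genotype under CD and HFD, and 4 for the difference of the diet responses.

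Of 1116 differences of single genes under alternatives, 1113 moved by less than 1 SD within groups, and the 3 that moved further were those of Hsd3b5 with 0.1 in place of the added 1. Part of this was fixed in advance, so the count is no measure of stability. A diet or genotype difference cannot move with the filter, with a fit of only the groups compared, or without a mouse of another group. None of the 10 called differences changed sign. Depth limits Hsd3b5 in FF HFD mice 2 and 3, at an estimated 2 and 3 reads.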
